A study of Mus musculus with 8 samples.

Results

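Long intergenic non-coding RNAs (lincRNAs) that are present at a readable level in the mouse kidney are described here, at 28 days of age, in WT and Tsc1-KO animals. A gene was a member if the deposited table gave it the biotype lincRNA, if its raw read count averaged at least 100 over all 8 libraries, and if it did not lie on chromosome X or Y. The members were thus chosen by their raw counts, WT and Tsc1-KO together. The table lists 30587 genes, 2356 of them lincRNAs, and 137 of these met the rule. A further 4 passed the count but lie on X or Y and were left out. The 4 WT libraries (WT 1 to 4) are labelled C57BL/6 and carry neither the floxed allele nor Cre by their labels. The 4 Tsc1-KO libraries (5 to 8) are labelled Tsc1f/f/Aqp2 Cre. In these mice Cre is driven by Aqp2, a water channel gene of collecting duct principal cells, and removes Tsc1, a brake on mTORC1 signaling. RNA was taken from whole kidney and selected for poly(A), so it also holds RNA of cells in which Aqp2 is not active, and fewer cells of a type and less RNA per cell cannot be told apart.

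LincRNAs are transcribed by RNA polymerase II from their own start sites, spliced and mostly polyadenylated like mRNAs, but are not known to be translated into protein. Some stay in the nucleus, where they build nuclear bodies or act on chromatin, and others bind proteins or microRNAs in the cytoplasm. Many start close to a protein-coding gene and share its promoter region, and others serve as hosts from which small nucleolar RNAs (snoRNAs) or microRNAs are cut.

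In the Tsc1-KO kidney 4 of the 137 lincRNAs rose (Gm45847, Dubr, C030037D09Rik and Mkln1os) and 2 fell (Gm42031 and Neat1). These are genes with an adjusted p under 0.05 in the edgeR quasi-likelihood test over all 18048 tested genes, and all 137 members were among those tested. The 6 called members are 4.38% of the lincRNAs (2.92% higher and 1.46% lower), beside 4.67% (3.5% higher and 1.16% lower) of all tested genes and 5.14% of tested protein-coding genes with the same minimum count. The share was thus near the background. Gm42031, Gm45847 and Mkln1os, however, met the minimum count only through the genotype where they are high, so the share is a description. With the minimum set on the WT mean alone, 2 higher and 3 lower were called among 134 lincRNAs. Strain background and loss of Tsc1 cannot be told apart for any of these calls. The changes were of very unequal size. Gm42031 was nearly lost, Gm45847 rose 4.55-fold, and the other 4 had log2 changes between -0.68 and 1.02.

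The promoter windows of the called lincRNAs are shown first because they place each RNA beside its neighbor. RefSeq gives a window for 4 of the 6 (250 bases before to 50 after the start, build GRCm38.p6), and 81 of all 137 lincRNAs have an entry, 54 of them with a start within 100 bp of that in the table. Each is written 5′ to 3′ on the strand of the RNA. In Gm42031 (chr8:85131765-85132064, minus strand) capitals mark TATAAA, the TATA box, whose first letter lies 27 bases before the RefSeq start. That start lies 475 bp from the start in the deposited table, inside the gene as the table gives it, whereas the starts of the other 3 windows are within 2 bp of it. In C030037D09Rik (chr11:88718393-88718692, plus strand) and Mkln1os (chr6:31398724-31399023, minus strand) capitals mark the bases that also lie in the window of the neighboring protein-coding gene on the other strand. That stretch is 135 bases for Msi2 and 154 bases for Mkln1. Dubr (chr16:50732724-50733023, minus strand) shares no base with its neighbor and has no capitals.
Gm42031: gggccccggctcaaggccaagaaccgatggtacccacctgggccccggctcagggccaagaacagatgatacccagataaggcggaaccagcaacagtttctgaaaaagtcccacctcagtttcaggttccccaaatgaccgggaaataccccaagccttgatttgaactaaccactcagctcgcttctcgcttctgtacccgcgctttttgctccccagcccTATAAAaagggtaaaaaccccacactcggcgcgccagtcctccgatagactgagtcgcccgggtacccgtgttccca
C030037D09Rik: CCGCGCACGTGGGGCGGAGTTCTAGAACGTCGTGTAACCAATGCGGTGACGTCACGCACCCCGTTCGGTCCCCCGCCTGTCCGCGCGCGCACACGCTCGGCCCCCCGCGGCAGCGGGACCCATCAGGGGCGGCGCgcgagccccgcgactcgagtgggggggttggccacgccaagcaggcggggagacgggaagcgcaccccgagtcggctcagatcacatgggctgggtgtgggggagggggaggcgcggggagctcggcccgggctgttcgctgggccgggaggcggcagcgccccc
Mkln1os: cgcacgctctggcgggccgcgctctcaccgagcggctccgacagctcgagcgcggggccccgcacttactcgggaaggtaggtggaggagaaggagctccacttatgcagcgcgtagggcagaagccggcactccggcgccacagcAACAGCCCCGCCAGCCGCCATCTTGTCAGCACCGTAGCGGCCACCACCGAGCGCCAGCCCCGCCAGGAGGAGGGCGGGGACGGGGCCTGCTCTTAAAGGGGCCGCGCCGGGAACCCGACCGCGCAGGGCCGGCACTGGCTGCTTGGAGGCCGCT
Dubr: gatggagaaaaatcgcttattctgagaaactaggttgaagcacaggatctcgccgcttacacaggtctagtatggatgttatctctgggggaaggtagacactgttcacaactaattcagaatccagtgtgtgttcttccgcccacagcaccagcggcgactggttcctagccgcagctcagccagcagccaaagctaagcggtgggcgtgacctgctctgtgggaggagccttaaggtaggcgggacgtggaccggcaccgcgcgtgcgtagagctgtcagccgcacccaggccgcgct

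The windows with shared bases are rich in G and C, at 75.7% for C030037D09Rik and 72.7% for Mkln1os, against 56.7% for Gm42031 and 57.3% for Dubr. The median over all 32851 windows is 52.7%, and over the 81 lincRNA windows 53%. CpG pairs stood at 0.988 of the number expected from the base content in C030037D09Rik and 0.884 in Mkln1os, where the median of all windows is 0.384 and of lincRNA windows 0.474. Searches on both strands covered the forkhead motif TGTTTAC, the AP-1 motif TGANTCA, the ATF4 composite motif TGATGNAA, the E-box CACGTG and the TATA box TATAAA. The TATA box in Gm42031 and an E-box at bases 6 to 11 of the C030037D09Rik window were the only matches in these 4 windows. The TATA letters are in 13.6% of all windows and 11.1% of lincRNA windows, and the E-box in 7.15% and 9.88%. The forkhead motif is in 3.65% of all and 2.47% of lincRNA windows, the AP-1 motif in 7.81% and 6.17%, and the ATF4 motif in 3.97% of all windows and in 0 of the 81. CACGTG and TGANTCA read the same on both strands, and no motif letters overlapped another motif in these windows.

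The 137 RNAs are modest in size and level. Their exonic length ran from 384 to 20771 bases with a median of 2614, against 4293 for tested protein-coding genes. In the GENCODE M21 annotation 19 have a single exon and the largest transcript of a member has 11 exons. RefSeq lists 102 of them, 92 as long non-coding RNAs, 8 as protein-coding genes (among them Tmem61 and Tmem250-ps) and 2 as pseudogene kinds, so the lincRNA label is not shared by both annotations for these 10. The members took 0.417% to 0.586% of all counts in a library. They were spread over all 19 autosomes, with 13 on chromosome 5 as the most and 3 each on chromosomes 15 and 18 as the fewest.

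Levels between genes are given in FPKM, reads scaled to exon length and library size, as deposited. They are a description, since a minimum count chose the members. The median lincRNA stood at 3.63 FPKM, and the median was 7.21 FPKM over protein-coding genes with the same minimum count. Below 2 FPKM lay 42 members, another 42 lay from 2 to 5 FPKM, and 15 reached 20 FPKM.

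**Figure D1:**
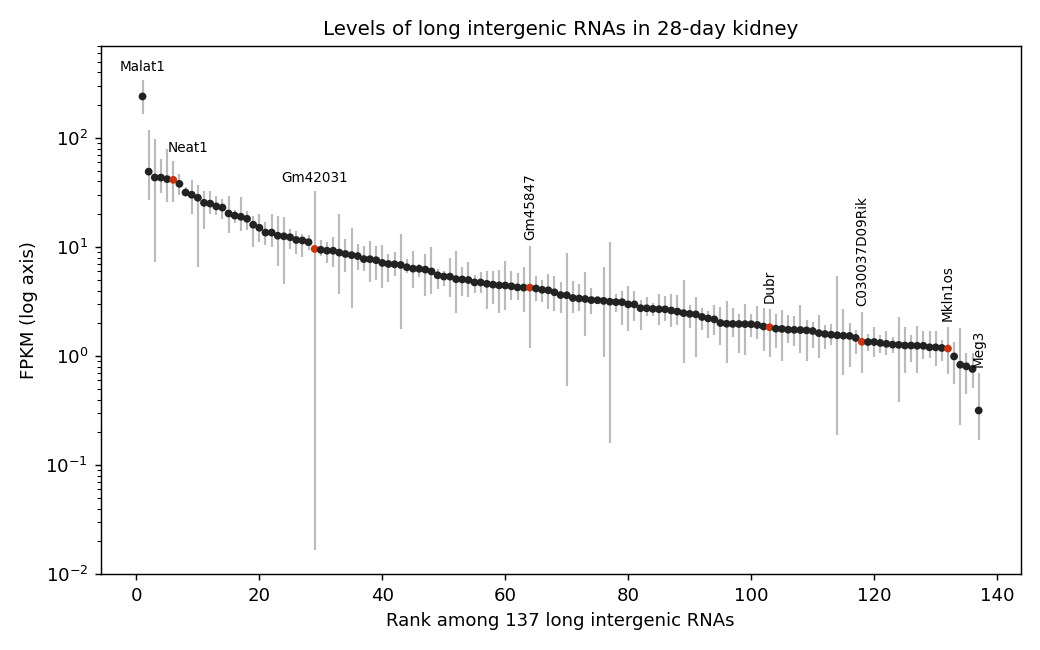
Mean FPKM of each of the 137 lincRNAs (points, log axis) ordered by level, with bars from the lowest to the highest of 8 libraries. Red points are the 6 called lincRNAs. Malat1 stands alone at 241 FPKM, and the bar of Gm42031 reaches far below its mean because the 4 Tsc1-KO libraries hold almost none of it.

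Malat1, an abundant RNA of nuclear speckles, was the highest with a mean of 241 FPKM and a range of 165 to 341 over the libraries. Malat1 and Neat1 together held 45.6% to 58.9% of all lincRNA counts in a library. These are reads after poly(A) selection, and how fully either RNA was captured was not measured. The FPKM of Neat1 also divides its reads by the full exon length, whichever transcript they come from. After Malat1 came Gm26917 at 49.2 FPKM, Gm10076 at 43.5, Gm44386 at 43.4, Gm12121 at 42, Neat1 at 41.4 and Tmem250-ps at 38. 2900097C17Rik stood at 31.7 FPKM, D630029K05Rik at 30.2 and Gm12678 at 28.4. The library ranges of these 9 overlap one another, so their order is not fixed by the data. They differ in how steady they are. 2900097C17Rik, the mouse Norad RNA that binds Pumilio proteins in the cytoplasm, ranged only from 29.6 to 35.6 FPKM, whereas Gm10076, a single-exon gene that RefSeq lists as a pseudogene, ranged from 7.33 to 98.5 FPKM. Reads of a pseudogene can come from near-identical copies, so the level of Gm10076 is uncertain. Gm26917 lies 13 bases before Rn18s-rs5, an 18S ribosomal RNA gene that RefSeq places at 39846354 to 39848202 on chromosome 17. Its 4 WT libraries held 111, 130, 392 and 123 CPM and its Tsc1-KO libraries 185, 159, 126 and 91.4 CPM, with WT 3 far above the rest.

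CPM, counts scaled to library size with TMM factors, are used for comparisons between groups. The libraries held 26453073 to 31226739 counts. Tsc1 itself ran from 42.7 to 55.3 CPM in WT and from 34 to 65.9 CPM in Tsc1-KO (log2 change -0.05, adjusted p = 0.933), which is whole-kidney RNA and does not show the state of the principal cells. All 9 markers of A-type intercalated cells rose, with a summed level of 401 to 571 CPM in WT and 812 to 1600 CPM in Tsc1-KO. Of 8 myeloid markers 3 rose (110 to 132 and 141 to 204 CPM), and of 10 proximal tubule markers 3 fell (16900 to 18500 and 10500 to 14500 CPM). Of 6 tubule injury markers 2 rose, Lcn2 (at most 32.5 CPM) and Timp1 (at most 8.04 CPM). The list summed to 674 to 1810 and 1340 to 4530 CPM. Most of this was Spp1, at 650 to 1740 and 1300 to 4390 CPM, which was not called (adjusted p = 0.157). Havcr1 had a log2 change of -0.00125. Of 7 tested principal cell markers Scnn1g and Gata3 rose and Fxyd4 fell (849 to 1270 and 953 to 1210 CPM for the list of 8). Tsc1-KO 7 was the lowest Tsc1-KO library for each of the 9 A-type intercalated cell markers. It held Foxi1 at 93.7 CPM against 149 to 208 CPM in the others. It was also the lowest for Gm45847, Dubr and Mkln1os, but C030037D09Rik was lowest in Tsc1-KO 6. For Neat1, which fell, Tsc1-KO 7 was the library farthest from WT. No marker on these lists, or on those of the other kidney cell types, was at 0 in all libraries. The part of cell makeup in the lincRNA values was not tested. WT 3, WT 4, Tsc1-KO 7 and Tsc1-KO 8 held 3945 to 6001 reads of Y-linked genes and the others 0 to 8, so each genotype has 2 libraries of either kind.

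Across the 137 lincRNAs the median log2 change of Tsc1-KO over WT was -0.11, and 92 of them (67.2%) had a negative value, against 51.2% of tested genes with the same minimum count and a median of -0.01. Leaving out each library gave medians of -0.16 to -0.06, among them -0.06 without WT 1 (86 negative) and -0.07 without Tsc1-KO 7 (83 negative). The median was nearer to 0 in the libraries with Y-linked reads, where the median was -0.03 and 72 members were negative, than in those without, where it was -0.18 and 100 were negative, and this difference was not tested. In 70 lincRNAs the change was under 0.2 in size. A log2 change of at least 1 in size was reached by 6 members, of which Gm42031, Gm45847 and C030037D09Rik were called and Gm42047, Gm3137 and Gm15348 were not. At an unadjusted p under 0.05 stood 29 members (21.2%), against 18.9% of tested genes with the same minimum count and 17.6% of all tested genes. The 2 genotypes did not overlap in 21 members (15.3%), 8 higher and 13 lower in Tsc1-KO, against 11.5% of all tested genes. That background also holds genes with lower counts, so these 2 shares are not like for like.

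**Figure D2:**
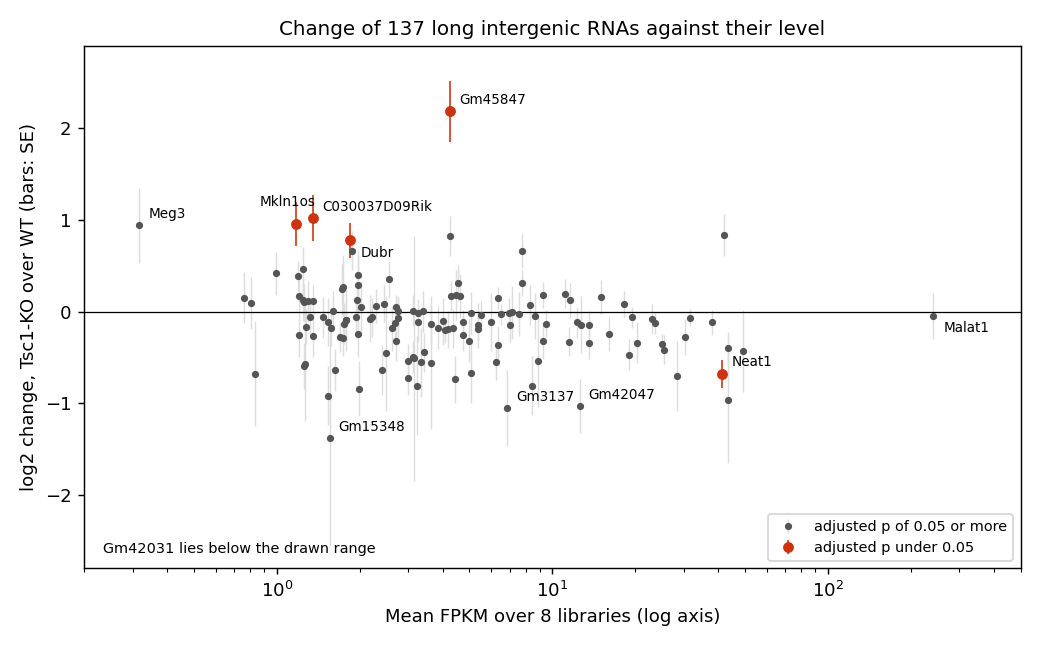
Log2 change of Tsc1-KO over WT for the lincRNAs, with bars for the SE, against their mean FPKM on a log axis. Called lincRNAs are red. Most points lie within 1 of 0 at every level, and Gm42031, at -8.36, lies below the drawn range.

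The minimum was a mean over both genotypes. It was met by the WT mean and the Tsc1-KO mean alike in 121 members, by the WT mean alone in 7 and by the Tsc1-KO mean alone in 9. Gm42031 is among the 7, and Gm45847 and Mkln1os, 2 of the 4 higher calls, are among the 9. Just inside it were C730036E19Rik with a mean count of 100.8 and Gm17753 with 101.2, and just outside Gm48604 with 99.1 and Gm29012 with 98.2.

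Gm42031 (ENSMUSG00000110386, chr8:85125872-85132289, minus strand, 2 exons, coordinates of the table, as in GRCm38) showed the largest difference of any lincRNA. The WT libraries held 660, 1600, 674 and 910 reads, or 23.9, 62, 24.9 and 33.9 CPM. The Tsc1-KO libraries held 8, 2, 2 and 1 reads, or 0.267, 0.0665, 0.0628 and 0.0318 CPM. The genotypes were thus far apart in every library, and Gm42031 entered the set through its WT counts alone. Its mean was 36.2 ± 17.8 CPM among WT and 0.107 ± 0.108 CPM among Tsc1-KO libraries (SD, n = 4), with a fitted log2 change of -8.36 (SE 0.54, adjusted p = 4.58e-05). Leaving out any 1 library kept the call, with log2 changes from -9.29 to -7.99, and so did the libraries with and without Y-linked reads taken alone. The function of Gm42031 is not known. Zfp791, the zinc finger gene 2777 bp away on the same strand, was not called. The log2 change of Zfp791 was -0.00496 (SE 0.26, adjusted p = 0.997), and 0.599 in the libraries with Y-linked reads alone. Ifi202b, a gene known to differ between inbred mouse strains and looked up after its values were known, held 0 reads in each WT library and 70 to 131 in each Tsc1-KO library. Strain background and loss of Tsc1 cannot be told apart in this design.

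Gm45847 (ENSMUSG00000109814, chr7:123031415-123068305, plus strand, 4 exons) had the highest log2 change of the members. It met the minimum through its Tsc1-KO counts alone, with a mean of 85.2 reads in WT and 444.8 in Tsc1-KO. The WT libraries stood at 3.95, 3.8, 2.44 and 2.53 CPM and the Tsc1-KO libraries at 12.5, 21, 6.85 and 17.7 CPM. Every Tsc1-KO library was above every WT library, and Tsc1-KO 7 was the lowest of the 4. The level went from 3.18 ± 0.803 to 14.5 ± 6.2 CPM (SD, n = 4), a 4.55-fold rise (log2 change 2.19, SE 0.33, adjusted p = 0.00399). The call held without any 1 library (adjusted p of 0.000144 to 0.0197). In the libraries with Y-linked reads alone the log2 change was 2.30 with an adjusted p of 0.15, and in those without it was 2.09 with 0.00965. Gm45847 lies 28858 bp downstream of Rbbp6, which encodes a ubiquitin ligase that binds the retinoblastoma protein. The log2 change of Rbbp6 was -0.06 (adjusted p = 0.863).

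Neat1 (ENSMUSG00000092274, chr19:5824708-5845478, minus strand) is the RNA on which paraspeckles, bodies in the nucleus that hold back certain proteins and RNAs, are built. Its RNA, as read after poly(A) selection, fell in Tsc1-KO, and paraspeckles were not measured. The WT libraries stood at 1275, 985, 1101 and 887 CPM and the Tsc1-KO libraries at 816, 642, 543 and 659 CPM, with no overlap and a gap of less than 100 CPM between WT 4 and Tsc1-KO 5. The means were 1062 ± 167 and 665 ± 113 CPM (SD, n = 4), and the log2 change was -0.68 (SE 0.15, adjusted p = 0.0291). Its call was lost without WT 1 (adjusted p = 0.0757), WT 2 (0.056), WT 3 (0.0845), Tsc1-KO 6 (0.072) or Tsc1-KO 8 (0.083). The log2 change was -0.73 in the libraries with Y-linked reads and -0.66 in those without, neither called (adjusted p = 0.228 and 0.223). Neat1 lies 4224 bp downstream of Frmd8 on the same strand. Frmd8, whose product stabilizes the iRhom proteins at the cell surface, had a log2 change of 0.05 (adjusted p = 0.876).

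Malat1 is transcribed from the same strand 22036 bp away from Neat1 and was not called. The WT libraries held 1205, 1575, 2369 and 1735 CPM and the Tsc1-KO libraries 2431, 1412, 1657 and 1164 CPM, so the genotypes overlapped fully. The log2 change of Malat1 was -0.05 (SE 0.25, adjusted p = 0.957), and 0.444 in the libraries without Y-linked reads. The log2 ratio of Neat1 to Malat1 counts was -0.667 ± 0.53 in WT and -1.29 ± 0.377 in Tsc1-KO (SD, n = 4). This difference of -0.62, looked at after the values were known, did not pass a two-sided exact permutation test over all 70 ways to assign the genotypes (p = 0.114, smallest possible 0.0286). It is therefore not shown that Neat1 moved apart from Malat1, and how fully poly(A) selection captured each RNA was not measured.

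Dubr (ENSMUSG00000022639, chr16:50719294-50732773, minus strand) is known from mouse muscle cells, where it acts on the promoter of the nearby gene Dppa2. It stood at 7.25, 6.78, 4.63 and 6.89 CPM in WT and at 11.2, 12.7, 8.58 and 11.4 CPM in Tsc1-KO. All Tsc1-KO libraries were above all WT libraries, with WT 1 and Tsc1-KO 7 closest. The level rose 1.72-fold from 6.39 ± 1.19 to 11 ± 1.72 CPM (SD, n = 4; log2 change 0.78, SE 0.19, adjusted p = 0.0393). Only leaving out Tsc1-KO 7 kept the call (adjusted p = 0.0181). Without any other library the adjusted p was 0.0639 to 0.116. The nearest protein-coding gene in the table, the HMG-box factor gene Bbx, is 286904 bp away and had a log2 change of 0.14 (adjusted p = 0.824).

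C030037D09Rik (ENSMUSG00000087574, chr11:88718645-88728893, plus strand) starts 132 bp from Msi2 on the other strand, and their RefSeq windows share the bases printed in capitals above. It stood at 3.88, 4.81, 2.96 and 3.5 CPM in WT and at 10.9, 5.52, 5.84 and 8.49 CPM in Tsc1-KO. The genotypes did not overlap, but WT 2 and Tsc1-KO 6 were close. The level rose 2.03-fold from 3.79 ± 0.777 to 7.68 ± 2.52 CPM (SD, n = 4; log2 change 1.02, SE 0.25, adjusted p = 0.0444). The call held without Tsc1-KO 6 (adjusted p = 0.04) or Tsc1-KO 7 (0.0252) and was lost without any other library (0.0583 to 0.139). For Msi2, which encodes an RNA-binding protein of progenitor cells, the log2 change was 0.01 (SE 0.11, adjusted p = 0.985), with a sign that turned under other scalings.

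Mkln1os (ENSMUSG00000086212, chr6:31366885-31398773, minus strand) overlaps the start of Mkln1 on the other strand, with start sites 38 bp apart in the table. It stood at 2.39, 2.09, 2.03 and 2.94 CPM in WT and at 5.54, 4.89, 3.08 and 4.9 CPM in Tsc1-KO. The genotypes were separated only narrowly, by WT 4 and Tsc1-KO 7. Mkln1os also met the minimum through its Tsc1-KO counts alone, with a mean of 63.5 reads in WT and 141.2 in Tsc1-KO. The level rose 1.94-fold from 2.37 ± 0.416 to 4.6 ± 1.06 CPM (SD, n = 4; log2 change 0.96, SE 0.24, adjusted p = 0.0452). Without Tsc1-KO 7 the adjusted p was 0.0139, and without any other library 0.062 to 0.14. For Mkln1, which encodes muskelin of the CTLH ubiquitin ligase, the log2 change was 0.31 (SE 0.09, adjusted p = 0.0979), with no overlap between the genotypes. Whether reads were assigned by strand is not given in the sources used here, so reads of this pair where they overlap cannot be told apart.

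**Figure D3:**
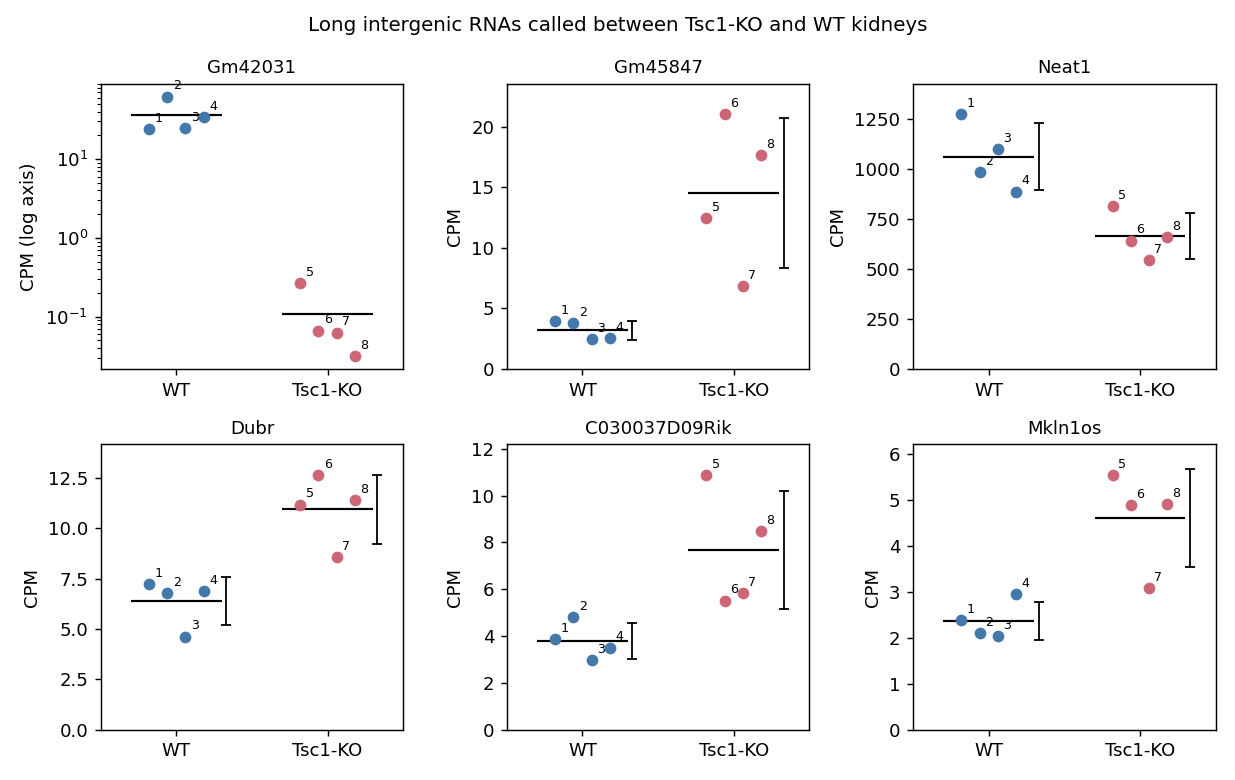
CPM of the 6 called lincRNAs in each of 4 WT (blue) and 4 Tsc1-KO (red) libraries, with library numbers beside the points. Black lines are means and side bars the SD. Gm42031 has a log axis and no SD bar. In every panel the genotypes are apart, and Tsc1-KO 7 is the Tsc1-KO library closest to WT for Gm45847, Dubr and Mkln1os, but not in the other panels.

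With DESeq2 in place of edgeR 15 members were called (10.9%, against 8.54% of all genes), 8 higher and 7 lower. With Y-linked reads as a term in edgeR 10 were called (7.3%, against 6.07%). The libraries with Y-linked reads alone gave 2 (1.46%, against 0.315%) and those without gave 3 (2.19%, against 1.95%). With 1 library left out 2 to 10 members were called, the most without Tsc1-KO 7 (7.3%, against 6.56%). Several lincRNAs thus sit near the threshold. 5930430L01Rik ran from 13.5 to 17.6 CPM in WT and from 6.97 to 11.8 CPM in Tsc1-KO (log2 change -0.72, adjusted p = 0.0564), without overlap. Gm42047 stood at 89.6, 83.1, 107 and 103 CPM in WT and at 57.3, 71.8, 26.3 and 31.8 CPM in Tsc1-KO (log2 change -1.03, adjusted p = 0.0888). It also lacked overlap and averaged 12.6 FPKM. The log2 change of Gm42047 was -1.85 (adjusted p = 0.00442) in the libraries with Y-linked reads and -0.44 (adjusted p = 0.384) in those without. These 2 values were not shown to differ. Tmem61, which RefSeq counts as protein-coding, ran from 10.2 to 15.4 CPM and from 13.6 to 26.9 CPM (log2 change 0.82, adjusted p = 0.0592). It lies 6533 bp from Bsnd, which encodes barttin, the chloride channel subunit of the thick ascending limb and intercalated cells.

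Among the other uncalled members with the highest values, Gm12121 had a log2 change of 0.83, Gm13652 one of 0.66 and Gm26809 one of 0.66. Their adjusted p was 0.0679, 0.117 and 0.0783, with no overlap between the genotypes in these 3. Meg3, the maternally expressed RNA of the imprinted Dlk1-Dio3 region, was the member with the lowest level, 0.317 FPKM. Meg3 stood at 3.52, 4.23, 3.18 and 4.92 CPM in WT and at 3.17, 10.1, 13 and 4.1 CPM in Tsc1-KO. Only Tsc1-KO 6 and 7 were above the WT range (log2 change 0.94, adjusted p = 0.266).
At the other end, beside Gm42047, stood Gm15348 (-1.38), Gm3137 (-1.05), Gm10076 (-0.96) and Gm36283 (-0.92) on the log2 scale, with overlapping genotypes and adjusted p of 0.634, 0.216, 0.552 and 0.153. Gm15348 varied strongly within a genotype. It stood at 1.88, 1.63, 20.1 and 9.43 CPM in WT and at 0.868, 0.698, 9.86 and 1.21 CPM in Tsc1-KO. The high libraries were WT 3, WT 4 and Tsc1-KO 7, all of which carry Y-linked reads, while Tsc1-KO 8, which also carries them, was low. The nearest protein-coding genes of the 10 uncalled lincRNAs with the highest and lowest values (Bsnd, 4930469K13Rik, Lsm8, Klhdc4, Mtx2, Pawr, Slc19a1, Rtl1, Spry2 and Tubgcp3) were not called (adjusted p of 0.0733 to 0.946).

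Of the members on the role lists (imprinted, snoRNA or microRNA host, nuclear, cytoplasmic, stress-linked and immune RNAs) Neat1 alone was called. The lists hold few members, so this call does not set them apart from all tested genes, of which 4.67% were called. Dubr is on none of these lists. Among the members were 5 on the list of snoRNA hosts. The introns of such hosts release small RNAs, many of which guide modification of ribosomal RNA. RefSeq places snoRNA genes within only 4 of all 137 members, so not all 5 hold one in that annotation. None of the 5 was called, and their log2 changes were -0.34 for Epb41l4aos, -0.19 for Snhg12, -0.15 for Snhg6, -0.14 for Snhg20 and -0.08 for Snhg18. All 5 values were negative, though Snhg18 turned to 0.21 in the libraries with Y-linked reads. Snhg12 stood at 13.6, 13.3, 13.8 and 14.6 CPM in WT and at 10.8, 13.2, 12 and 12.5 CPM in Tsc1-KO. The genotypes did not overlap, yet the difference was small (adjusted p = 0.483).
Mir17hg, which hosts the miR-17-92 cluster, stood at 5.66 ± 1.13 CPM among WT and 5.69 ± 1.24 CPM among Tsc1-KO libraries (SD, n = 4). Its log2 change of 0.01 (SE 0.22, adjusted p = 0.992) turned in sign under other scalings. Norad (2900097C17Rik) stood at 160 ± 13.1 and 153 ± 4.13 CPM (SD, n = 4; log2 change -0.06, SE 0.10, adjusted p = 0.809). 1700020I14Rik, the mouse Cyrano RNA that triggers decay of miR-7, stood at 148 ± 24.2 and 156 ± 19.6 CPM (SD, n = 4; log2 change 0.08, SE 0.14, adjusted p = 0.833). For these 3 RNAs no difference was detected, and with SEs of this size small changes would not be.
Of the nuclear and chromatin RNAs 3 were members, Malat1, Neat1 and Pantr1. Of 7 stress and p53-linked RNAs Neat1 was the only member, of 8 imprinted RNAs Meg3, and of 6 immune RNAs none.

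Lhx1os and Pantr1 start beside genes that pattern the kidney, and were picked after the values were known. Lhx1os starts 125 bp from Lhx1, a homeobox gene of kidney development. Lhx1os ran from 12.6 to 20.1 CPM in WT and from 10.1 to 12.4 CPM in Tsc1-KO (log2 change -0.47, adjusted p = 0.155), just without overlap, and Lhx1 had a log2 change of -0.29 (adjusted p = 0.338). Pantr1 starts 926 bp from Pou3f3, a factor of the developing loop of Henle, and their log2 changes were -0.13 and -0.28 (adjusted p = 0.8 and 0.245). Both members of each pair had a negative value, and none was called.

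The nearest protein-coding gene, by the gap between gene bodies in the table, lay at a median distance of 3270 bp. A protein-coding gene was overlapped by 21 lincRNAs, 49 lay within 1 kb of one and 119 within 50 kb, while 11 were over 100 kb away. The commonest arrangement was head to head, with 41 lincRNAs transcribed away from a neighbor on the other strand. A further 28 lay upstream and 24 downstream of the gene on its strand, 23 were tail to tail, and 16 overlapped it on the other and 5 on the same strand. In 25 pairs the start sites were divergent and within 1 kb. Of the 6 called lincRNAs 2, C030037D09Rik and Mkln1os, were in such pairs.

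The 137 lincRNAs have 132 different nearest protein-coding genes, of which 123 were tested. These neighbors were set by position alone. Called were 3 of them (2.44%), against 5.09% of all tested protein-coding genes. In no pair were both the lincRNA and its neighbor called, but with so few calls on either side such a pair was unlikely anyway. Around the most abundant lincRNAs and those with a known role, the tested neighbors other than Cnbd2 were not called. They included Pcbp1 by Gm44386, Nacc2 by Tmem250-ps, Gm10271 by D630029K05Rik, Zcchc7 by Gm12678, Trnau1ap by Snhg12, Epb41l4a by Epb41l4aos, Mcmdc2 by Snhg6, Sec14l1 by Snhg20, Sema5a by Snhg18, Gpc5 by Mir17hg and Oip5 by 1700020I14Rik. Oip5, a centromere gene, had a log2 change of 1.25 (adjusted p = 0.123). Crisp3 by Gm26917 was too low to test.
Cnbd2, a gene with a cyclic nucleotide-binding domain 12427 bp from Norad, stood at 45.8, 54.8, 43.7 and 34.7 CPM in WT and at 8.85, 10.4, 5.78 and 5.85 CPM in Tsc1-KO. It fell in every Tsc1-KO library (log2 change -2.53, SE 0.22, adjusted p = 9.47e-05) and was called without any 1 library, while Norad had nearly equal levels. For Cnbd2 too, strain background and loss of Tsc1 cannot be told apart. Aoc1, the diamine oxidase gene 6813 bp from Gm7932, rose from 6.21 ± 1.85 to 17.8 ± 6.43 CPM (SD, n = 4; log2 change 1.52, SE 0.30, adjusted p = 0.018), where Gm7932 had a log2 change of 0.31 (adjusted p = 0.457). The Aoc1 call was lost without WT 1 (adjusted p = 0.0569), WT 3 (0.0592), WT 4 (0.0655), Tsc1-KO 6 (0.0563) or Tsc1-KO 8 (0.0531). Ppa2, the mitochondrial pyrophosphatase gene whose start lies 102 bp from that of Gm43254, fell from 120 ± 18.3 to 87 ± 3.83 CPM (SD, n = 4; log2 change -0.46, SE 0.12, adjusted p = 0.0487). Gm43254 had a log2 change of -0.64 (adjusted p = 0.162), the closest value among the 3 called neighbors and their lincRNAs. The Ppa2 call held only without WT 4 (adjusted p = 0.0374), and without any other library the adjusted p was 0.059 to 0.131.

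Member and neighbor had the same sign in 85 of 127 pairs with a tested neighbor (66.9%). The lincRNA value was negative in 85 of these pairs and the neighbor value in 77 (60.6%), so both leaned the same way to begin with. Across the 127 pairs Pearson's r of the log2 changes was 0.0951 and Spearman's rho 0.286. Genes are not independent replicates, all pairs share the same 8 libraries, and these values are a description. For the 25 divergent pairs rho was 0.287 with 18 of the same sign, and for the other 102 pairs 0.293 with 67 of the same sign. The difference between the divergent and the other pairs was not tested.

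**Figure D4:**
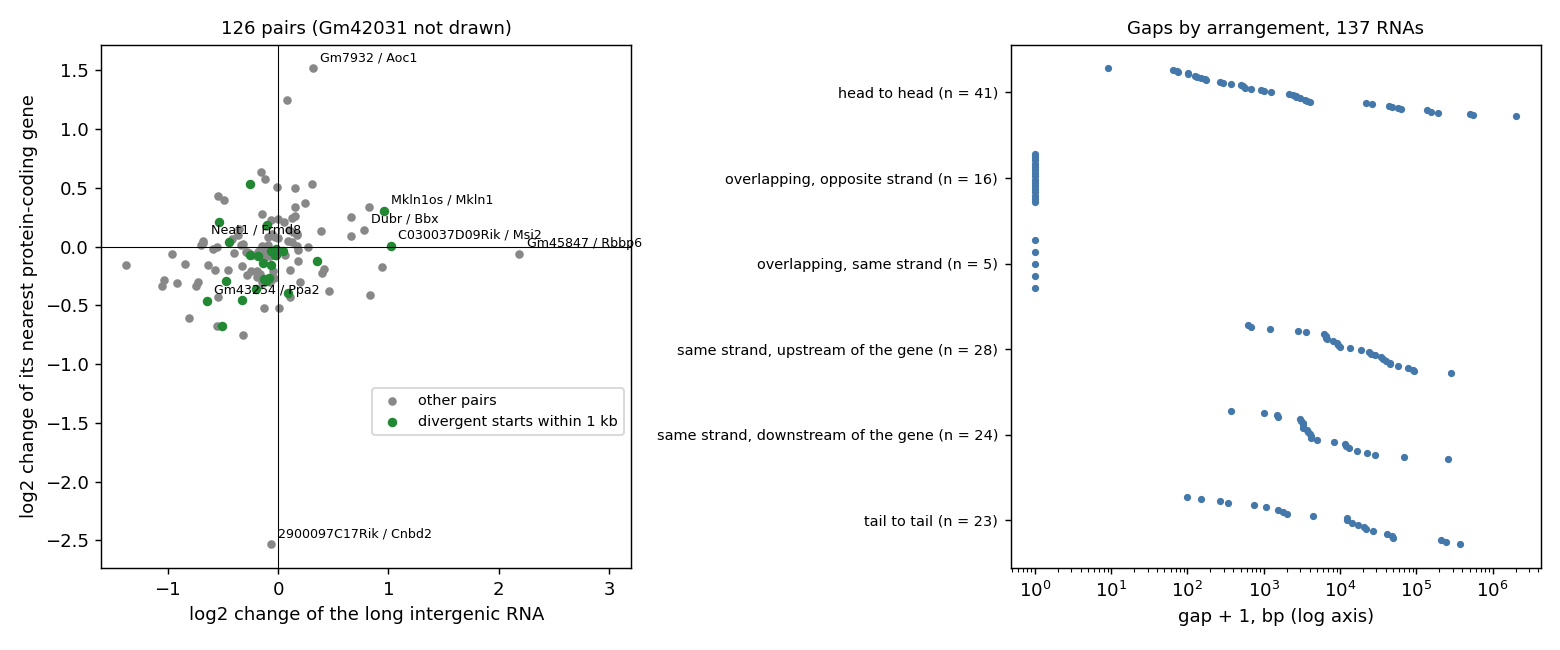
Left, log2 change of a lincRNA (x axis) and of its nearest protein-coding gene (y axis) in 126 pairs, with divergent starts within 1 kb in green and pairs holding a called gene named. Gm42031 is not drawn. Right, the gap between the 2 genes (plus 1 bp, log axis) by arrangement for all 137 lincRNAs. The called lincRNAs drawn lie between -0.06 and 0.31 on the y axis, and the lincRNAs beside called neighbors between -0.64 and 0.31 on the x axis.

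Where 2 lincRNAs lie next to each other their values can be set side by side. Gm3137 and Gm10787 overlap on opposite strands on chromosome 10, with log2 changes of -1.05 and -0.74. Gm6999 and Gm49542 overlap on the same strand on chromosome 14 and had log2 changes of -0.57 and -0.46, so reads of that pair may be split between them. Ino80dos and Gm20342 overlap on the same strand on chromosome 1, with -0.18 and -0.28. None of these 6 was called (adjusted p of 0.147 to 0.793). AI480526 and Gm38102, which overlap on opposite strands on chromosome 5, had log2 changes of -0.01 and -0.07.

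The interaction of genotype with Y-linked reads, fitted in edgeR, gave 0 called members and 0 called genes of 18048, with 6 members at an unadjusted p under 0.05. No lincRNA was thus shown to respond differently in libraries with and without Y-linked reads.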

How the data were processed

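Kidney RNA was selected for poly(A) and sequenced on a HiSeq 2500, per the labels. HISAT2 2.0.4 and HTSeq 0.9.1 appear in the submitters' processing notes. Build, annotation and strand setting were not given in the sources used. Of 30551 gene identifiers shared with GENCODE M21 (GRCm38), 29791 had the same coordinates, as did 134 of the 137 lincRNAs. The deposited table holds raw read counts, FPKM and a signal, which the authors obtained from the counts with 1 scaling factor for each library. The signal was not used here, nor were the authors' fold changes and p-values for the same comparison.

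R 4.3.3 was used with edgeR 4.0.16 (filterByExpr with a minimum count of 10, TMM, robust quasi-likelihood test, Benjamini-Hochberg over 18048 genes), limma 3.58.1 and DESeq2 1.42.0. The filter left out genes holding 0.116% of counts. The SE of an edgeR log2 change was taken as its size divided by the square root of the F statistic of the test. This is an approximation, and a rough one at very low counts, as for Gm42031 in Tsc1-KO. The edgeR fit was also run on counts simulated from its own fitted levels and spread. That run meets the assumptions of the test by design and does not bear on the calls made here. Separate animals are not stated for the libraries. Libraries with and without Y-linked reads cannot be of the same animal, but those of the same kind may be. The p-values thus cover the spread of these libraries, which may in part be technical.

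Members, gene lists and tests were chosen with earlier results of these data known. Named were the called members, the 10 highest in FPKM, those on role lists, the 5 highest and 5 lowest uncalled changes, those at the count minimum, and nearest protein-coding genes. 5930430L01Rik, Gm43254, Gm7932, Lhx1os, the overlapping lincRNA pairs, the lincRNAs named for their spread or hosted RNAs, and Ifi202b lie outside that rule and were chosen after their values were seen. Alternatives were other scalings, tools and filters, FPKM with a pseudocount of 0.1 or 1 in limma, reads of Ddx3y, Eif2s3y, Kdm5d and Uty as a term or split, other count minimums, other definitions of the nearest gene, and leaving out each library. Some items are not reported here. Sequences are from RefSeq (GRCm38.p6).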

Additional observations from a re-analysis of the deposited data

Results flagged for a closer look

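In 5 of 96 groups of 4 libraries, 1 for each named gene and genotype, a single library lay far from the other 3 by Dixon's test at its 95% critical value, which chance gives in about 1 of 20 groups. Gm42031 stood at 0.267 CPM in Tsc1-KO 5 and at 0.0318 to 0.0665 CPM in the other Tsc1-KO libraries, a difference of a few reads. Gm15348 stood at 9.86 CPM in Tsc1-KO 7 against 0.698 to 1.21 CPM in the others. Gm26917, next to an 18S ribosomal RNA gene, stood at 392 CPM in WT 3 against 111 to 130 CPM in the other WT libraries, and its log2 change of -0.43 turned to 0.194 without WT 3. Ppa2 stood at 81.3 CPM in Tsc1-KO 5 against 88.4 to 89.2 CPM. Pou3f3 stood at 203 CPM in Tsc1-KO 5 against 161 to 167 CPM.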

How the results depend on the processing

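Over 16 alternatives for each of 48 named genes, 645 of 768 values kept direction and side of the threshold, 58 lost and 23 gained a call, and 42 changed sign. Against 4 lincRNAs higher, 2 lower and 3 nearest genes called, DESeq2 gave 8, 7 and 7, and Y-linked reads as a term gave 5, 5 and 3. Libraries with Y-linked reads alone gave 0, 2 and 1, those without gave 1, 2 and 2, and limma on FPKM with either pseudocount gave 1, 2 and 2. A mean count of at least 200 left 2 higher and 2 lower, and one of at least 100 in WT left 2 higher and 3 lower. Leaving out each library gave 1 to 7 higher, 1 to 3 lower and 1 to 5 nearest genes, with 7 higher and 5 nearest genes without Tsc1-KO 7. Counting the nearest gene among tested genes only, a choice made after seeing the data, gave 4. The cause of these differences was not tested, and the splits hold fewer libraries.

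Changes of sign were confined to 11 genes with small log2 changes or, for Gm26917, 1 library far from the rest. In the libraries without Y-linked reads Gm26917 stood at 0.491, Malat1 at 0.444 and Mir17hg at -0.179. In those with them Snhg18 stood at 0.21, Gm17753 at 0.255, Zfp791 at 0.599, Frmd8 at -0.00813, Bbx at -0.105 and Msi2 at -0.0919. Mir17hg and Msi2 gave -0.0107 and -0.0121 with DESeq2 size factors in edgeR, -0.0106 and -0.0121 with DESeq2, -0.00777 and -0.00907 without a filter, -0.0146 and -0.0176 with FPKM + 0.1, and -0.00882 and -0.0161 with FPKM + 1. Leaving out each library gave ranges of -0.626 to 0.194 for Gm26917, -0.0171 to 0.169 for 1700020I14Rik, -0.208 to 0.00416 for Snhg18, -0.235 to 0.0588 for Gm17753, -0.287 to 0.132 for Malat1 and -0.131 to 0.0986 for Mir17hg. They were -0.176 to 0.155 for Zfp791, -0.143 to 0.00577 for Rbbp6, -0.0215 to 0.0787 for Frmd8, -0.0391 to 0.327 for Bbx and -0.0763 to 0.0644 for Msi2. No paired analysis was possible because the numbers in the labels (WT 1 to 4, Tsc1-KO 5 to 8) have none in common. With a median SE of 0.217, small changes of single lincRNAs were not detectable.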

Other observations

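The lincRNAs that varied most within a genotype were BC049987, Gm15348, Gm48935, Gm10076, Gm49542, Gm6999, C730036E19Rik and Gdap10, with an SD of log2 CPM of 0.977 to 2.03 against a median of 0.306 over the 137. They were chosen for this spread, so the values are a description. BC049987, which starts 995 bp from the trehalase gene Treh, stood at 1.27, 0.659, 16.4 and 3.47 CPM in WT and at 1.54, 0.233, 11.8 and 1.65 CPM in Tsc1-KO, highest in WT 3 and Tsc1-KO 7. The overlapping pair Gm6999 and Gm49542 near Olfm4 followed one course. Gm6999 stood at 2.72, 4.07, 10.1 and 10.1 CPM in WT and at 2.44, 1.69, 10.2 and 3.88 CPM in Tsc1-KO. Gm49542 stood at 2.93, 5.04, 14.7 and 17.1 CPM in WT and at 3.84, 3.85, 13 and 8.3 CPM in Tsc1-KO. Both were highest in the 4 libraries with Y-linked reads except that Gm6999 in Tsc1-KO 8 lay below WT 2. Gm48935 went another way, with 8.84, 18.6, 5.18 and 3.73 CPM in WT and 1.13, 6.35, 4.81 and 12.4 CPM in Tsc1-KO.

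The steadiest lincRNA was 1110019D14Rik, whose start lies 8 bp from that of 2610001J05Rik, with an SD of log2 CPM of 0.0704 and a log2 change of -0.01. Norad (0.0881) and Snhg12 (0.0937) came next.

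MicroRNA genes lie on the strand of 6 members and snoRNA genes within 4 by RefSeq. E130102H24Rik holds Mir101a and had a log2 change of -0.81 (adjusted p = 0.213). 6720427I07Rik holds Mirlet7d and had a log2 change of 0.01 (adjusted p = 0.988). 2900076A07Rik holds Mir1839 and had a log2 change of -0.06 (adjusted p = 0.927).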
